A study of Mus musculus with 6 samples.

Results

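The genes described here are 8 renal tubule identity genes, taken by symbol from a count table of 78298 genes in RENCA cells. They comprise the kidney lineage transcription factors Pax2, Pax8 and Lhx1, the endocytic receptors Lrp2 (megalin) and Cubn (cubilin), the cotransporters Slc34a1 (phosphate) and Slc5a2 (glucose), and the kidney cadherin Cdh16. RENCA is an established mouse renal adenocarcinoma line, so every sample comes from 1 line. Both groups were transduced with a puromycin-resistance lentivirus and kept in 2 μg/mL puromycin for 14 days. The vector of the oe-AQP1 group expressed mouse Aqp1 from the ubiquitin C promoter, and that of the oe-NC group was empty. Each group has 3 samples. The labels do not say that these came from separate transductions, so p-values measure the spread between these samples.

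Pax2 and Pax8 are paired-box factors that specify the kidney lineage and stay on in many renal tumors, where pathologists use them as markers of renal origin. Lhx1 is a LIM-homeodomain factor of the early nephron. In the mature proximal tubule, megalin and cubilin take up filtered proteins and vitamin carriers, Slc34a1 reabsorbs phosphate and Slc5a2 reabsorbs most of the filtered glucose. Cdh16 (Ksp-cadherin) is an adhesion protein of tubule epithelium. Aqp1, the water channel that was overexpressed, is itself a marker of the proximal tubule.

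The libraries held 18385714 to 21920899 expected counts each, which are estimated reads per gene and need not be whole. Aqp1 counts were 7713, 8545 and 7838 with the Aqp1 vector against 41, 25 and 45 with the empty vector (log2FC = 7.70), as labelled. These counts do not separate the transcript of the vector from that of the native gene. One library stood apart from its group: limma's sample quality weights gave oe-NC sample 1 a weight of 0.21, against 1.12 to 1.57 for the other 5. Its effect on each identity gene tested is given with that gene. FDR denotes the Benjamini-Hochberg adjusted p-value of limma-voom over the 15522 genes with enough counts to test, and log2FC the log2 of the ratio of oe-AQP1 to oe-NC as fitted. CPM are counts scaled to library size with TMM factors. TPM were computed here from the counts and the length of each gene's exons in GENCODE M39, and are used wherever levels of different genes are compared.

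The identity genes fell into 3 tiers (plot of counts by sample). Cdh16, Pax8 and Pax2 were well expressed, Lrp2, Cubn and Lhx1 were low, and the 2 cotransporters were at or under 2 counts in every library. In oe-NC cells the mean TPM was 158 for Cdh16, 92.6 for Pax8, 26.8 for Pax2, 7.06 for Lrp2, 2.41 for Cubn and 1.44 for Lhx1. The order was the same in oe-AQP1 cells, with 106, 91.3, 32.6, 3.85, 2.02 and 1.30 TPM. The ranges of neighbors in this order did not overlap within either group, down to Lhx1. Those of Slc5a2 and Slc34a1 overlapped. The top of the order in oe-AQP1 cells depended on the length used: read from the longest transcript in place of all exons, Pax8 had 132 TPM there and Cdh16 106 TPM. Among 21412 protein-coding genes ranked by mean TPM in oe-NC cells, Cdh16 stood at percentile 96.1, Pax8 at 92.6, Pax2 at 75.5 and Lhx1 at 49.4.

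**Figure D1:**
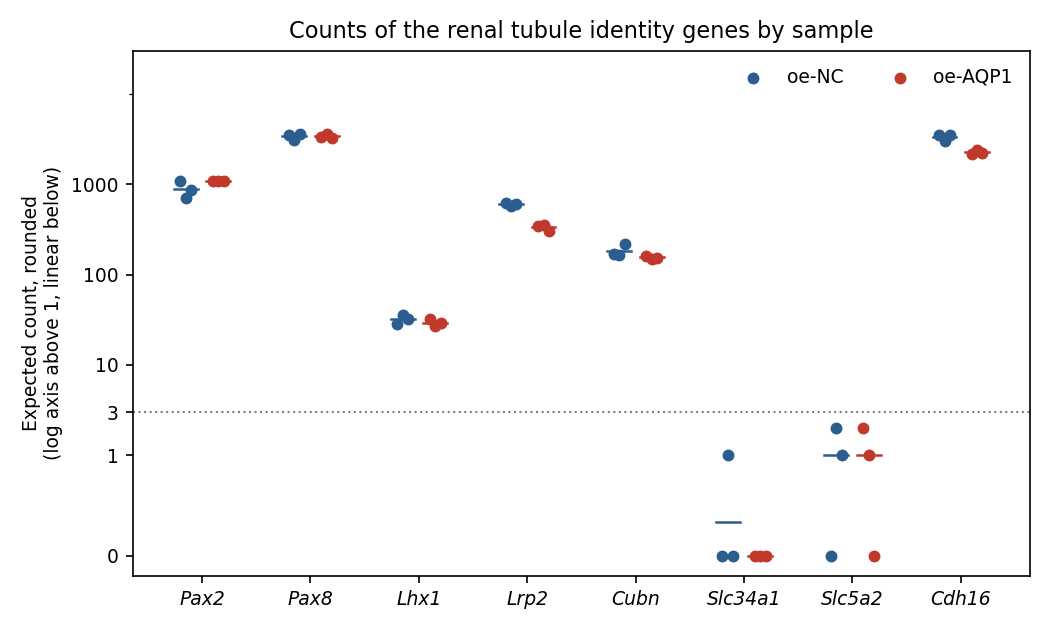
Expected count, rounded, of each identity gene in each sample, on an axis that is logarithmic above 1 and linear below. Points are samples, short lines are group means, and the dotted line marks 3 counts. Lrp2 and Cdh16 lie lower in the 3 oe-AQP1 samples, while Slc34a1 and Slc5a2 stay between 0 and 2 counts.

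**Figure D2:**
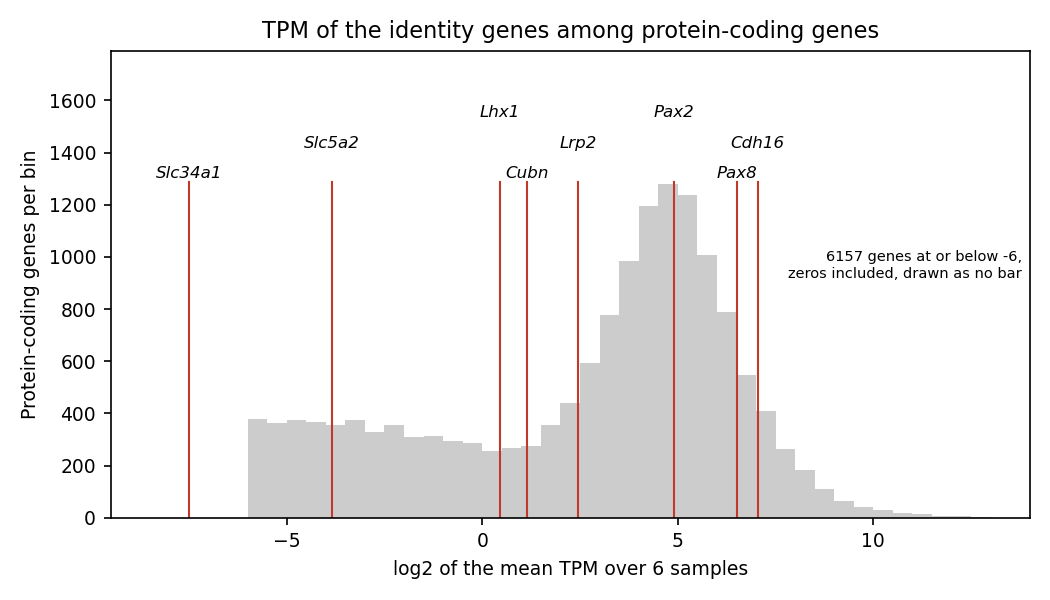
Number of protein-coding genes (vertical axis) by the log2 of their mean TPM over the 6 samples (horizontal axis), with a line at each identity gene. Cdh16 and Pax8 lie in the upper tail, Lhx1, Cubn and Lrp2 lie between the low and the high genes, and Slc34a1 and Slc5a2 lie among the genes with hardly any reads.

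Promoters are shown for 3 of the genes, 1 from the top tier, 1 that was lower in oe-AQP1 cells and 1 with 1 count over the 6 libraries. RefSeq promoter sequences (GRCm38.p6, 250 bases before to 50 after a start) were matched for 6 of the 8 genes, all but Slc5a2 and Cdh16. The sequences read 5′ to 3′ on the strand of the gene, at chr2:24475550-24475849 (reverse) for Pax8, chr2:69585980-69586279 (reverse) for Lrp2 and chr13:55399398-55399697 (forward) for Slc34a1. Capitals mark CG dinucleotides.
Pax8: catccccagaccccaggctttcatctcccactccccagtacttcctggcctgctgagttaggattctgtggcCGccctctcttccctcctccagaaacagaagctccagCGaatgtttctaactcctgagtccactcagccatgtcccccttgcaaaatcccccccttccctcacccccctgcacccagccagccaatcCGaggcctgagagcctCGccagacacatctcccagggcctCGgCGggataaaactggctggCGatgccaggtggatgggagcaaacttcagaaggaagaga
Lrp2: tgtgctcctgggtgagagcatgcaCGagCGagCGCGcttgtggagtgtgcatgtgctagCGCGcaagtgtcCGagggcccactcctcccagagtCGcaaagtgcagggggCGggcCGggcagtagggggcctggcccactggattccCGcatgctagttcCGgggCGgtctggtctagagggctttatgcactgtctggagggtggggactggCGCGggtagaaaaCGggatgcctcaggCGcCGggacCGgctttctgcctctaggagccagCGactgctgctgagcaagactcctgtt
Slc34a1: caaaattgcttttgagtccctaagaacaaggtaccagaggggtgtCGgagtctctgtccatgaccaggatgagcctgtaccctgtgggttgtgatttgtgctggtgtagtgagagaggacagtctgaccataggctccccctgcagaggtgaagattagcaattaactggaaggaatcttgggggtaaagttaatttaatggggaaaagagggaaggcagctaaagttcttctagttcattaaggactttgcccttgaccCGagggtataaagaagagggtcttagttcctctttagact
The Lrp2 window held 20 CG dinucleotides, that of Pax8 7 and that of Slc34a1 2. The median over 32841 promoters was 7. Lhx1, among the low genes, had 31 and Cubn 5, and the 3 annotated starts of Pax2 had 7, 23 and 30, so the counts did not follow the tiers of expression. The Pax core motif GCGTGAC, searched on both strands, was in none of the 8 windows, against 2.09% of all promoters. The HNF1 motif GTTAAT, searched likewise, occurred 2 times in the Slc34a1 window and in no other. Of all promoters 7.1% held it. These are searches of letters, not measured binding.

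The question put to these genes was whether their levels differed between cells with forced Aqp1 and control cells. Of the 8 genes, 6 had enough counts to test. Lrp2 and Cdh16 passed an FDR of 0.05 with lower levels under AQP1. With all 6 samples and no block or sample weights, none was higher by limma-voom, edgeR or DESeq2, nor at an unadjusted p under 0.05. Pax2 passed as higher in some other fits, which are given with that gene. Of all genes tested, 32.5% passed, 16.6% lower and 16% higher. Neither gene reached an absolute log2FC above 1, which 5.23% of all genes tested passed with the FDR, 4.39% higher and 0.844% lower. The median log2FC of the 6 genes was -0.26, against 0.0023 over all genes tested. Since bulk RNA was measured, fewer cells with a transcript and less of it per cell cannot be told apart.

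Lrp2 (ENSMUSG00000027070, chromosome 2, 69254682 to 69416409 on the reverse strand of GRCm39) encodes megalin, the large scavenger receptor of the tubule brush border. Its counts were 342, 353 and 300 with AQP1 and 623, 574 and 598 in controls. The groups did not overlap, and the same was true in CPM of 47.3% of all genes tested, 23.8% lower and 23.5% higher. In CPM it fell from 30.4 ± 2.04 (SD, n = 3) in oe-NC to 16.0 ± 1.35 (SD, n = 3) in oe-AQP1 cells, a decrease of 47.4% by the fit (log2FC = -0.93, standard error 0.08, FDR = 1.56e-05 by limma-voom). Without oe-NC sample 1 the log2FC of Lrp2 was -0.89. Cdh16 (ENSMUSG00000031881, chromosome 8, 105328543 to 105351028 on the reverse strand) had counts of 2177, 2411 and 2239 with AQP1 and 3540, 3014 and 3461 in controls. These groups did not overlap either. Its level fell by 35.2% (from 169 ± 9.74 to 110 ± 0.609 CPM, SD, n = 3; log2FC = -0.63, standard error 0.05, FDR = 4.63e-06 by limma-voom), and without oe-NC sample 1 the log2FC was -0.58. An exact two-sided permutation test gave p = 0.1 for each of Lrp2 and Cdh16, the smallest that 3 samples against 3 allow.

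Cubn (ENSMUSG00000026726, chromosome 2, 13281149 to 13496624, reverse strand) encodes cubilin, which lacks a transmembrane segment and works together with megalin. Its counts were 161, 150 and 154 with AQP1 and 167, 165 and 220 in controls, with 1 of the controls well above the rest. In CPM the groups did not overlap, but the difference missed the threshold (7.48 ± 0.661 against 9.29 ± 0.933 CPM, SD, n = 3; log2FC = -0.32, 95% confidence interval -0.57 to -0.07, FDR = 0.0511 by limma-voom). Without oe-NC sample 1 Cubn passed, at a log2FC of -0.38 and an FDR of 0.0115 by limma-voom. The TPM ratio of Lrp2 to Cubn was 1.90, 2.10 and 1.74 with AQP1 and 3.34, 3.12 and 2.43 in controls. It was 1 of 5 ratios formed, and its groups did not overlap (exact two-sided permutation p = 0.1, the smallest possible). Cubn overlaps the antisense gene Gm13270 over 737 exon bases. Gm13270 had 11 to 19 counts, and the library kit does not mark strand, so reads of the pair cannot be told apart there.

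Pax8 (ENSMUSG00000026976, chromosome 2, 24309418 to 24365617, reverse strand) had counts of 3360, 3630 and 3209 with AQP1 and 3541, 3054 and 3615 in controls. The groups overlapped, and no difference was detected (164 ± 7.03 against 172 ± 7.08 CPM, SD, n = 3; log2FC = -0.07, 95% confidence interval -0.18 to 0.03, FDR = 0.250 by limma-voom). Without oe-NC sample 1 the log2FC of Pax8 was -0.04 (FDR = 0.319 by limma-voom). Pax2 (ENSMUSG00000004231, chromosome 19, 44735057 to 44826703, forward strand) had counts of 1097, 1097 and 1090 with AQP1 and 1091, 700 and 867 in controls. Here oe-NC sample 1 matched the oe-AQP1 samples, while the other oe-NC samples lay lower. Over all 6 samples the log2FC of Pax2 was 0.25 (standard error 0.11, 95% confidence interval -0.01 to 0.51, FDR = 0.124 by limma-voom). Without oe-NC sample 1 it was 0.41 with an FDR of 3.99e-06 by limma-voom. With the replicate number as a block and all 6 samples kept, Pax2 passed as well (log2FC 0.25, FDR = 0.0364 by limma-voom), although the numbers did not pair the samples, and with sample quality weights its log2FC was 0.38. Whether Pax2 counted as higher thus depended on how the samples were fitted. The TPM ratio of Pax8 to Pax2 was 2.76, 2.98 and 2.66 with AQP1 and 2.93, 3.94 and 3.76 in controls, and the groups overlapped (exact two-sided permutation p = 0.2). Pax8 shares 680 exon bases with the antisense gene Gm13415, which had 17 to 34 counts.

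Lhx1 (ENSMUSG00000018698, chromosome 11, 84408803 to 84416368, reverse strand) had counts of 32, 27 and 29 with AQP1 and 28, 36 and 32 in controls. The groups overlapped (log2FC = -0.19, 95% confidence interval -0.68 to 0.30, FDR = 0.542 by limma-voom), and at this depth changes inside that interval could not be seen. Without oe-NC sample 1 the log2FC of Lhx1 was -0.28 (FDR = 0.450 by limma-voom). The antisense gene Lhx1os, which covers 1661 of its 4386 exon bases, had 0 to 6 counts.

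**Figure D3:**
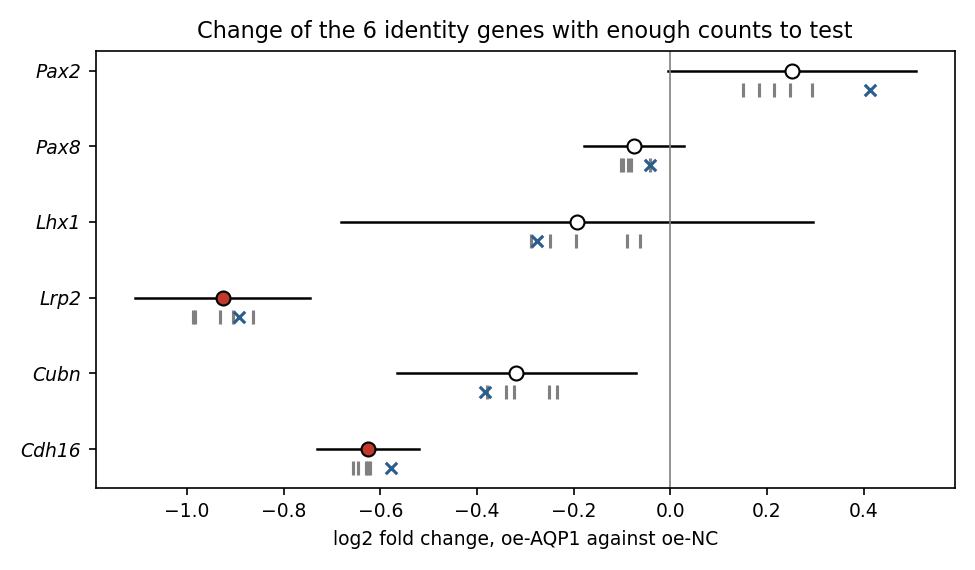
Fitted log2FC of AQP1 over control cells (horizontal axis) for the 6 identity genes tested, with 95% confidence intervals. Filled circles have an FDR under 0.05. Marks under each line are the values with 1 sample left out, with a cross for oe-NC sample 1. Lrp2 and Cdh16 stay below 0 throughout, and the cross of Pax2, at 0.41, lies farthest from its circle.

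The 2 cotransporters were not tested. Slc34a1 (ENSMUSG00000021490, chromosome 13, 55546000 to 55563413, forward strand), the main phosphate cotransporter of the proximal tubule, had 1 count in oe-NC sample 2 and 0 in the other 5 libraries. A count of 0 allows up to 3 counts, which for this gene is 0.0845 to 0.0964 TPM in the libraries with 0, so expression above that was not seen in them. Such limits cover counting error only. Slc5a2 (ENSMUSG00000030781, chromosome 7, 127864829 to 127871602, forward strand) had counts of 2, 1 and 0 with AQP1 and 0, 2 and 1 in controls. Its few reads are uncertain, since their expected counts were not whole and 597 exon bases of Slc5a2 are shared with Rusf1, which had 300 to 388 counts on the other strand. No fold change is given for either gene.

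Other kidney transcription factors were described by a list of 29 genes, of which 13 were tested. Of these 2 were higher and 2 lower (15.4% each), near the 16% and 16.6% of all genes tested, with a median log2FC of -0.10. Hoxa11, a patterning factor of the kidney mesenchyme, had the highest TPM of the list, with 69.9 in oe-NC and 66.4 in oe-AQP1 cells. Hnf4a, the nuclear receptor that drives the mature proximal tubule program, had 0 to 3 counts in every library, and Six2, the factor of nephron progenitors, had 0. Tfap2a rose (log2FC = 0.62, standard error 0.08, FDR = 1.59e-04) and Wt1 fell (log2FC = -0.56, standard error 0.08, FDR = 4.06e-04 by limma-voom). Maf was higher (log2FC = 0.20, FDR = 0.0356), a call lost with DESeq2 and in 5 of the 6 fits that left out a sample, all but that without oe-NC sample 1, and Pou3f3 was lower (log2FC = -0.36, FDR = 0.00886). Of 18 cofactors and signals of Pax2, Pax8 and Lhx1, 9 were tested, 2 higher (22.2%) and 1 lower (11.1%), with a median log2FC of -0.06. Gdnf, a ligand that Pax2 is known to regulate, rose from 163–195 counts in controls to 257–287 with AQP1 (log2FC = 0.54, standard error 0.10, FDR = 0.00204 by limma-voom). Spry1, an inhibitor of receptor tyrosine kinase signaling, fell (log2FC = -0.36, FDR = 0.00376). Ssbp2, which stabilizes complexes of LIM-homeodomain factors with Ldb1, was higher (log2FC = 0.26, FDR = 0.00632), and Ldb1 itself had a log2FC of -0.06.

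Of 16 partners and ligands of megalin and cubilin, 12 were tested. Of these 5 were lower (41.7%) and 1 higher (8.33%), beside 16.6% and 16% of all genes tested. Their median log2FC was -0.13, against 0.0023 over all genes tested. Arrb1, an adaptor of receptor endocytosis, fell most, from 889–1029 counts in controls to 479–550 with AQP1 (log2FC = -0.95, standard error 0.05, FDR = 4.96e-07 by limma-voom). Myo6, the motor that pulls endocytic vesicles from the brush border, fell by 0.40 on the log2 scale (FDR = 1.47e-04), and Clcn5, the endosomal chloride transporter mutated in Dent disease, by 0.32 (FDR = 3.10e-04). Fcgrt, which carries immunoglobulin G and albumin, was lower by a smaller amount (log2FC = -0.30, FDR = 0.0200 by limma-voom), a call lost without any 1 of the 3 oe-AQP1 samples. Rab5a, of early endosomes, was higher (log2FC = 0.21, FDR = 0.00583). Lrpap1, the chaperone that megalin needs in the endoplasmic reticulum, was the best expressed of the list, with 60.0 TPM in oe-NC and 58.3 TPM in oe-AQP1 cells, and was not called (log2FC = -0.09, FDR = 0.224). The TPM ratio of Lrp2 to Lrpap1 was 0.0614 to 0.0733 with AQP1 and 0.114 to 0.125 in controls. Amn, which anchors cubilin in the membrane, had 0 to 2 counts in every library, and the megalin adaptor Dab2 had 4 to 11.

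Of 19 partners and paralogs of the cotransporters, 10 were tested, 5 lower (50%) and none higher, with a median log2FC of -0.25. Of all genes tested 16.6% were lower and 16% higher. None was higher by edgeR or DESeq2 or at an unadjusted p under 0.05. The paralogs of the proximal tubule and intestine, Slc34a2, Slc34a3 and Slc5a1, had at most 4 counts in any library. The carriers of general use Slc20a1 (phosphate) and Slc2a1 (glucose) were expressed. Slc20a1 had 115 TPM in oe-NC and 102 TPM in oe-AQP1 cells (log2FC = -0.22, FDR = 0.00221 by limma-voom). Slc2a1 (GLUT1) fell from 1744–2076 counts in controls to 1093–1273 with AQP1 (log2FC = -0.80, standard error 0.05, FDR = 9.14e-07). Pdzk1ip1, the small partner protein of Slc5a2, fell from 262–335 counts to 177–234 (log2FC = -0.64, standard error 0.10, FDR = 0.00108), and Slc2a2 (GLUT2), with 30 to 57 counts, was lower (log2FC = -0.67, FDR = 0.0202). The call of Slc2a2 was lost with DESeq2, without oe-AQP1 sample 1, without oe-AQP1 sample 2 and without oe-NC sample 2. Without oe-NC sample 1, 6 genes of this list were lower and 1 was higher. Of all 16085 genes tested in that fit, 3331 were lower and 3125 higher.

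Of 66 further transporters and enzymes of the proximal tubule, 39 had at most 3 counts in any library and 19 had enough to test. The genes without any count included the anion transporter Slc22a6, Gatm, Fbp1 and Ass1. Cyp4b1 and Slc17a1 had the highest TPM, 93.5 and 84.3 in oe-NC and 84.5 and 73.4 in oe-AQP1 cells, and Abcc2 (MRP2), an apical export pump, had 51.1 and 55.6 TPM. Of the 19 genes 8 were lower (42.1%) and 1 higher (5.26%), beside 16.6% and 16% of all genes tested, with a median log2FC of -0.15. The brush border peptidase Mme (neprilysin) fell most (log2FC = -0.57, standard error 0.07, FDR = 1.41e-04), next to the amino acid transporter Slc6a19 (log2FC = -0.57, standard error 0.16, FDR = 0.0222). Ggt1, a brush border peptidase too, was higher (log2FC = 0.27, FDR = 0.0231 by limma-voom). The calls of Slc6a19 and Ggt1 were lost with DESeq2. Without oe-AQP1 sample 2 both were lost as well, and 5 genes of the list were called, all lower. Of all 15863 genes tested in that fit, 1745 were lower and 1856 higher. The summed CPM of the 66 genes ranged from 560 to 568 with AQP1 and from 631 to 637 in controls. Much of this sum lay in few genes. The mean CPM of Cyp4b1 was 182 in oe-NC and 158 in oe-AQP1 cells, and that of Abcc4 82.7 and 61.4. For Abcc2, which was not called, it was 115 and 120.

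**Figure D4:**
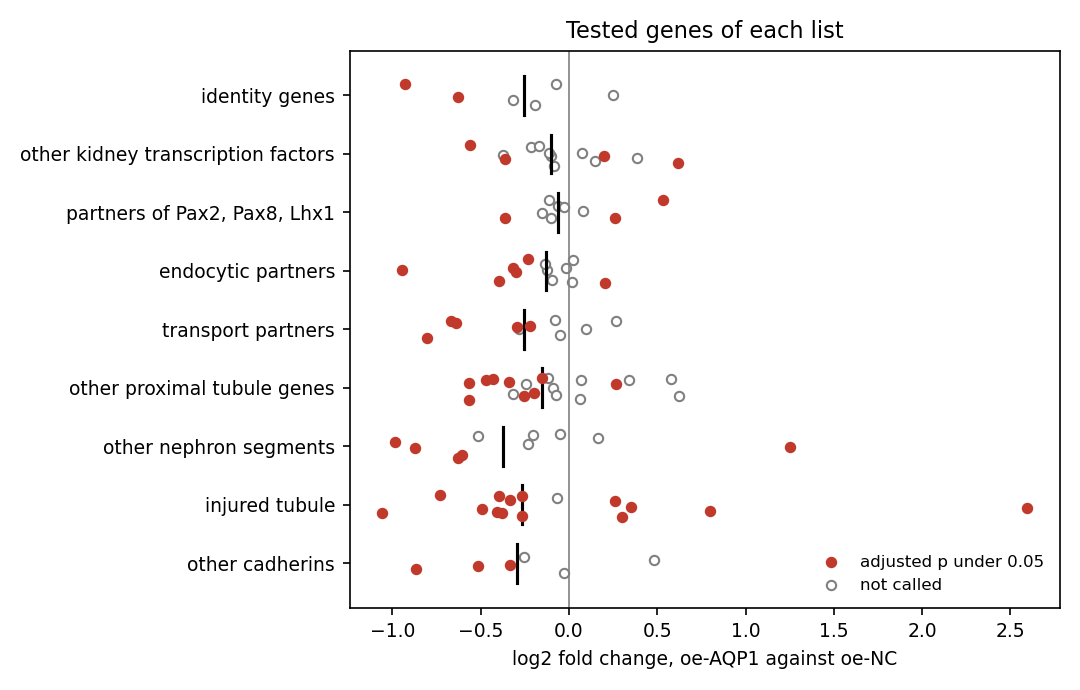
Fitted log2FC of AQP1 over control cells (horizontal axis) of the tested genes in each list (rows). Filled points have an FDR under 0.05, open points do not, and black lines are medians. Called genes of the cotransporter partners and of the other cadherins all lie below 0, while the injured tubule list holds both directions, with Ccl2 at 2.60.

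Cdh16 had a higher TPM than any of 19 other cadherins. Of these 6 were tested, 3 lower and none higher, by limma-voom, edgeR or DESeq2 or at an unadjusted p under 0.05 (median log2FC -0.29). The share called lower by limma-voom was 50%, while of all genes tested 16.6% were lower and 16% higher. Cdh3 (P-cadherin) had 85.5 TPM in oe-NC and 70.3 TPM in oe-AQP1 cells (log2FC = -0.33, FDR = 0.00102 by limma-voom), and Cdh1 (E-cadherin) had 3.14 and 1.78 TPM (log2FC = -0.86, standard error 0.15, FDR = 0.00173). The TPM ratio of Cdh16 to Cdh3 was 1.51 ± 0.0144 with AQP1 and 1.85 ± 0.0319 in controls (SD, n = 3, exact two-sided permutation p = 0.1), and that of Cdh16 to Cdh1 was 53.8 to 63.9 against 49.5 to 51.3 (exact p = 0.1). Neither ratio overlapped between groups, the first lower and the second higher with AQP1. Cdh6, a cadherin of the developing proximal tubule, had 0 counts in every library.

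Markers of other nephron segments and of injured tubule were expressed in part. Of 38 genes of the loop of Henle, distal tubule and collecting duct, 21 had at most 3 counts in any library, Umod with 0 among them. Of 10 tested 4 were lower (40%) and 1 higher (10%), beside 16.6% and 16% of all genes tested (median log2FC -0.37). Scnn1a, a subunit of the epithelial sodium channel, fell from 495–613 counts to 297–351 (log2FC = -0.87, standard error 0.08, FDR = 1.51e-05), and Slc4a1 fell from 80–89 to 38–53 counts (log2FC = -0.99, FDR = 0.00108). Trpm6, a magnesium channel of the distal convoluted tubule, rose from 596–632 counts to 1481–1675 (log2FC = 1.25, standard error 0.05, FDR = 5.17e-08 by limma-voom). Of 20 genes of the injured tubule 15 were tested, 9 lower (60%) and 5 higher (33.3%), with a median log2FC of -0.27. Lcn2 fell (log2FC = -0.73, FDR = 4.74e-06) and Itgb6 fell (log2FC = -1.06, FDR = 5.46e-04), while Vcam1 rose (log2FC = 0.80, FDR = 2.85e-04) and Ccl2, an inflammatory chemokine, rose most (log2FC = 2.60, FDR = 3.03e-11 by limma-voom). Havcr1 (KIM-1) had 0 counts in every library.

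The epithelial keratins Krt8 and Krt18, already counted in the injured tubule list, stood at 786 and 559 TPM in oe-NC cells. Both were lower with AQP1, as Lrp2 and Cdh16 were, at 614 TPM for Krt8 (log2FC = -0.41, FDR = 6.43e-05) and 482 TPM for Krt18 (log2FC = -0.27, FDR = 5.67e-04 by limma-voom). Krt20 of the same list, at 75.9 TPM in oe-NC cells, was not called (log2FC = -0.07, FDR = 0.353 by limma-voom). Markers of other cell types were checked as lists of 10 genes. At most 3 counts in any library were found for 5 podocyte, 5 endothelial, 6 stromal and 6 immune markers, among them Nphs1, Cdh5, Col3a1 and Ptprc. Tcf21, Kdr, Emcn, Rgs5, Ren1, Adgre1 and Tyrobp were at 0 in every library. The summed CPM of the immune list was 47.8 to 51.1 with AQP1 and 55.7 to 58.9 in controls. The endothelial sum was 278 to 285 against 177 to 204, and Eng alone made up at least 95.7% of it in each sample. The stromal sum was 56.8 to 58.9 against 51.9 to 65.9, and the podocyte sum 187 to 199 against 195 to 229. Csf1r moved with Lrp2 and Cdh16 (56–76 counts with AQP1 and 173–202 in controls, log2FC = -1.51), with Ptprc at 0 to 3 counts. Lyz2 fell too (log2FC = -0.52, FDR = 2.73e-04 by limma-voom), whereas Cd68, the best expressed of the immune list, had 86.6 TPM in controls and 99.4 TPM with AQP1 (log2FC = 0.15, FDR = 0.0764). The part of other cells in the lower Lrp2 and Cdh16 was not tested.

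Over the 6 samples, the genes with the pattern most like that of an identity gene were taken by Pearson's r of log2 CPM, among genes with a mean of at least 50 counts. The nearest were Myo7b for Cdh16 (r = 0.9998), Impdh2 for Lrp2 (r = 0.9985), Frat2 for Pax2 (r = 0.9944), Cyb5r4 for Cubn (r = 0.9891), Klc3 for Pax8 (r = 0.9874) and an unnamed gene, ENSMUSG00000121395, for Lhx1 (r = 0.999). All points share the group difference and the libraries, and with 6 points 1096 genes exceeded r = 0.95 with Cdh16 and 919 with Lrp2, against 37 with Pax8.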

How the data were processed

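Total RNA of 6 RENCA samples was sequenced by the authors from paired-end Illumina TruSeq libraries. The authors deposited expected counts per gene, not scaled between samples, beside their 2 group means, which were not used. Per the paper the reads were aligned to GRCm39, whereas the submitters' processing notes name GRCm38 and mm10 and list fastp, HISAT2, featureCounts and Subread. Some deposited values are not whole, and the step that made them fractional is not given in the sources used here. Positions and lengths are from GENCODE M39, where 78168 of the 78298 identifiers were found.

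Expected counts were rounded, genes were kept by filterByExpr (edgeR 4.0.16) and groups were compared by limma-voom (limma 3.58.1, R 4.3.3) with TMM scaling over the 15522 genes kept. The test was tried on simulated counts first. TPM used the union of exons. The fit was repeated with the quasi-likelihood test of edgeR, with DESeq2 1.42.0, and with sample quality weights, 3 scalings, 2 filters, unrounded counts, a replicate block, the fold threshold, the longest transcript as length, and each sample left out. Named genes were the 8 identity genes, the called partners, and of each list the 2 highest by TPM and the 2 largest increases and decreases among called genes with a mean of at least 50 counts. Any other gene was named after its values were seen. The members and lists were chosen with earlier results of these data known. Both motifs and the GO list were chosen after seeing the data. Samples of a group differed by a mean chi-square of 1.71 to 11.1 per gene, where sampling noise gives about 1. They were therefore not treated as repeated sequencing of 1 library, and all 6 were kept. The value does not show that they came from separate transductions. Some genes of the lists are counted but not reported here by name.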

Additional observations from a re-analysis of the deposited data

How the results depend on the processing

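Lrp2 and Cdh16 stayed lower and past the threshold under all 16 refits, with log2FC from -0.99 to -0.86 for Lrp2 and from -0.66 to -0.58 for Cdh16. Pax8 and Lhx1 passed under none (FDR from 0.194 to 0.612 and from 0.322 to 0.873). Pax2 was called higher with sample quality weights (log2FC = 0.38), with the replicate block (0.25, FDR = 0.0364) and without oe-NC sample 1, and over the fits that left out 1 sample its log2FC ranged from 0.15 to 0.41. Cubn was called lower with quality weights (log2FC = -0.36) and without oe-NC sample 1, and ranged from -0.38 to -0.24 over the same fits. The identity genes called were therefore 4 with quality weights, 3 with the block, and 2 to 4 with 1 sample left out. Of all 15522 genes, 2569 were lower and 2481 higher in the main fit. With quality weights these were 3315 and 3115, and with the block 2479 and 2346. Without oe-NC sample 1 they were 3331 and 3125 of 16085, the most of the fits that left out 1 sample. Without oe-AQP1 sample 2 they were 1745 and 1856 of 15863, the fewest.

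With the fold threshold added, 0 identity genes were called, and 0 in the lists of kidney transcription factors, their partners, endocytic partners, transport partners, proximal tubule genes and cadherins, 1 for other segments, 2 for injured tubule and 6 of the genes with kidney GO terms. Of all genes tested, 5.23% passed with that threshold. The 9 proximal tubule genes called became 5 with DESeq2 and 5 to 8 with 1 sample left out (5 without oe-AQP1 sample 2, 6 without oe-NC sample 2). DESeq2 called 2173 of all 15522 genes lower and 1974 higher. Without oe-NC sample 2, 2192 of all 16022 genes tested were lower and 2094 higher. The replicate number did not pair the samples: deviations of same-numbered samples correlated at 0.01, -0.02 and -0.07, and the block changed no call of an identity gene but that of Pax2. Read from the longest transcript, the TPM of Pax8 was 136 in oe-NC and 132 in oe-AQP1 cells, where it then exceeded that of Cdh16 (106), and the order of the other identity genes stayed as given. Scalings moved the median log2FC by at most 0.013. Lhx1, with about 30 counts, is limited by depth.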

Other observations

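A wider set of kidney genes was read from the deposited GO terms, taking 455 genes with a term that names the kidney, nephron, ureteric bud or a renal process. This set was chosen after the values above had been seen and includes several of the genes described. Of its genes 130 had no count in any sample and 210 were tested. Of those 68 were lower (32.4%) and 22 higher (10.5%), beside 16.6% and 16% of all genes tested, and the median log2FC was -0.09. With 1 sample left out, 66 to 107 of them were called. Calls over all genes varied in these fits too. The fewest were 1745 lower and 1856 higher of 15863, without oe-AQP1 sample 2. The most were 3331 lower and 3125 higher of 16085, without oe-NC sample 1. Pkhd1, the fibrocystin gene of recessive polycystic kidney disease, fell from 2584–2970 counts in controls to 1603–1853 with AQP1 (log2FC = -0.74, FDR = 3.75e-07 by limma-voom). Id3, an inhibitor of basic helix-loop-helix factors, fell most among genes with a mean of at least 50 counts (log2FC = -1.23, FDR = 6.46e-09), and the bicarbonate cotransporter Slc4a5 fell (log2FC = -1.02, FDR = 2.18e-04). Cyp26a1, which degrades retinoic acid, rose (log2FC = 0.93, FDR = 3.70e-04), as did Foxj1, a factor of motile cilia (log2FC = 0.76, FDR = 3.29e-04), while Stra6, a retinol transporter, fell (log2FC = -0.92, FDR = 2.19e-06).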
